A study of Mus musculus with 12 samples.

Results

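The genes described here encode protein subunits of the 5 complexes of the mitochondrial respiratory chain and ATP synthase. Members were the genes whose symbol begins with Nduf, Sdh, Uqcr, Cox or Atp5 followed by a subunit designation, as given by a probe set annotated with a single symbol. They came to 77 of the 18193 genes with such a probe set, and were measured by 158 of the 45037 non-control probe sets. By complex they comprised 34 genes of complex I, 4 of complex II, 8 of complex III, 14 of complex IV and 17 of complex V. Each gene was read from the probe set with the highest mean over the 12 arrays. The choice used symbols and no measured difference between groups.

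RNA came from whole spleens of 12 BALB/c mice, 1 mouse per array. The mice were wild type (wt) or Il1rn-deficient (ko), and each genotype was sampled at 1 month and at 4 months, with 3 mice in each of the 4 groups. The Il1rn gene encodes the interleukin-1 receptor antagonist, which competes with interleukin-1 for its receptor, and BALB/c mice without it develop arthritis spontaneously. The labels describe no treatment and no cell sorting, and they do not give the kind of Il1rn allele. Expression is given as signal scaled to the same trimmed mean on every array, and differences are log2 differences of that signal after adding 32. A gene was called when its limma adjusted p, over all 27041 probe sets tested, was under 0.05.

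The respiratory chain sits in the inner mitochondrial membrane. Complexes I and II feed electrons from NADH and succinate into ubiquinone, complex III passes them to cytochrome c, and complex IV transfers them to oxygen. Complexes I, III and IV pump protons, and complex V, the ATP synthase, uses the resulting gradient to make ATP. Nuclear genes encode most of the subunits, all members here among them. The mouse spleen filters blood, houses lymphocytes and macrophages, and also carries red cell and myeloid precursors, which divide and hold many mitochondria until red cells lose them on maturing. In whole spleen RNA, fewer cells of a type and less RNA per cell cannot be told apart.

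Promoters of respiratory chain genes are known for sites of ETS family factors, NRF1 and YY1. The search covered 300 bases per gene, from 250 before to 50 after the annotated RefSeq start (mouse assembly GRCm38.p6), on both strands, for 3 motifs. These were CCGGAAG for the ETS family, GCGCA and GCGC separated by 1 base for NRF1, and AAGATGG directly followed by CGGC for YY1. A window was found for 65 of the 77 members. The ETS letters occurred in 16 of these 65 windows (24.6%), against 9.12% of all 27025 windows and 11.9% of the protein-coding ones. NRF1 letters occurred in 14 members (21.5%), against 4.78% of all and 6.6% of protein-coding windows. The YY1 letters occurred in 3 members (4.62%), all of complex I, against 0.699% of all and 0.972% of protein-coding windows. No ETS match overlapped an NRF1 or YY1 match. Either ETS or NRF1 letters stood in 26 member windows, and both in Atp5h, Atp5k, Cox6a1 and Sdhd.

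The 150 bases before the start of 4 members are given from RefSeq, each on the minus strand of GRCm38.p6 and written 5′ to 3′ as the gene reads. Cox6b1 (chr7:30626115-30626264) and Cox6b2 (chr7:4753095-4753244) are shown because they encode alternative forms of the same complex IV subunit, and Cox6b2 had the largest differences of all members. Atp5h (chr11:115419920-115420069) and Sdhd (chr9:50603850-50603999) are shown because they hold both motifs. Capitals mark CTTCCGG, the ETS letters read on the opposite strand, and the NRF1 match. The ETS match begins at position -28 in Cox6b1, -38 in Atp5h and -46 in Sdhd, and the NRF1 match at -141 in Atp5h and -79 in Sdhd.
Cox6b1: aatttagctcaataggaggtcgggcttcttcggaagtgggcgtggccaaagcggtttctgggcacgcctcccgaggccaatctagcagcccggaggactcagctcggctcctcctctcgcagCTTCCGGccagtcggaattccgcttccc
Cox6b2: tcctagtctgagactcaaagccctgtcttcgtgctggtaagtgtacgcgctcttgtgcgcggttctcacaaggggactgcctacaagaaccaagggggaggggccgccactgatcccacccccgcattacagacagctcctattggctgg
Atp5h: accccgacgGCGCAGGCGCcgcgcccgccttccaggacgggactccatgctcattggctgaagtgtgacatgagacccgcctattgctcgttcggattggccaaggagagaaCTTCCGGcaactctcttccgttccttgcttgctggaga
Sdhd: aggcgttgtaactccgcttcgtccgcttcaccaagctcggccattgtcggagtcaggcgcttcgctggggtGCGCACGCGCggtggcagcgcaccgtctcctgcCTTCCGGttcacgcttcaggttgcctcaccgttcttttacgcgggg
The Cox6b2 window held none of the 3 motifs, which says only that these letters are not there.

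Of the 77 members, 73 reached a scaled signal of 100 on at least 3 arrays and were tested, comprising 33 of complex I, all of complexes II, III and V, and 11 of complex IV. The 4 that did not were Ndufb4, with signals of 37.5 to 80.6, and 3 tissue-restricted forms of complex IV subunits. These were the heart and muscle forms Cox7a1 (22.2 to 105) and Cox8b (3.1 to 65.3), and the testis form Cox7b2 (1 to 75). Mean signals of the tested members ran from 160 to 23574 with a median of 4643, above 93.9% of the genes tested. Levels of different probe sets are not compared with each other, since probes differ in brightness.

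Several facts of the arrays bear on the values. Il1rn itself was lower on every ko array on 1 of its 3 probe sets. That probe set was taken because it had the largest difference between ko and wt at 4 months, and the others are not described. Its wt signals were 120.5 to 163.5 at 1 month and 161.1 to 278.4 at 4 months, and its ko signals 5.641 to 40.6 and 10.1 to 40.82. The wt array of replicate 2 at 4 months carried pancreas transcripts, with a summed signal of 160471 over 9 pancreas markers against at most 2589 on any other array. The wt array of replicate 1 at 4 months had the highest ratios of 3′ to 5′ control probe sets, 1.00 for Gapdh and 1.37 for actin. On the other arrays these ratios were 0.65 to 0.82 and 1.07 to 1.20. The highest signal on an array was 33427 to 37921 on 6 arrays, called the low set, and 51247 to 68987 on the other 6. All 3 ko arrays at 1 month belonged to the low set, as did 1 array of each other group (wt replicate 3 at both ages and ko replicate 2 at 4 months). Bright members read lower on the low-set arrays. Among the 13 members with a mean signal over 10000, the median log2 difference of low-set from high-set arrays was -0.38 in wt at 1 month, -0.23 in wt at 4 months and -0.16 in ko at 4 months, and among the 38 under 5000 it was -0.09, -0.00 and 0.02. A block for the array set applies the same set difference to every group. The ko arrays at 1 month are all low-set, so theirs is taken from the other groups. Whether it holds there cannot be tested, and the ko values with the block rest on it. With the array set added as a block, the age fit in ko lost 11 of its 28 calls of members and gained 11 others, and in wt it kept all 22 and gained 8. Such changes are given beside the members described.

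Respiratory chain transcripts were lower at 4 months than at 1 month in wt spleens. Of 73 members, 22 fell and none rose by limma adjusted p under 0.05. Their median log2 difference was -0.32 while that of all genes was 0.08, and the difference was below 0 in 70 of the 73. Among all probe sets tested, 9.67% were called lower and 11.8% higher with age in wt, and among genes read from 1 probe set each, as the members were, 11.5% were called lower. The 3 arrays at 4 months lay below all 3 at 1 month in 36 members, an arrangement found in 13.2% of all probe sets tested. Neither background was matched on signal.

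In ko spleens 28 members fell with age and none rose, with a median of -0.31 against 0.09 for all genes, and 67 of 73 differences were below 0. The corresponding shares of all probe sets were 9.25% lower and 13.6% higher, and of genes read once each 10.9% were called lower. Complete separation of the 3 older from the 3 younger arrays was found in 47 members, against 18.2% of all probe sets. The wt and ko age comparisons share no array. Both lists held 14 members in common, which is 63.6% of the wt list and 50% of the ko list, and 7.46% of all genes fell in both. A further 8 passed in wt alone and 14 in ko alone, and 37 passed in neither. This split depends on the probe set read for each gene. Of the members in wt alone, Ndufb6, Uqcrh, Cox5b, Cox6c, Atp5h and Atp5j2 had another probe set called lower in ko. Of those in ko alone, Ndufa12, Ndufb2, Ndufb7, Uqcr10 and Atp5k had another called lower in wt. Of those in neither, Ndufa5, Ndufs7, Uqcrb, Uqcrc2 and Cox5a had another called lower in ko, and Ndufa7 in wt. No difference between these wt and ko age effects was itself called, as described under the genotype effect.

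**Figure D1:**
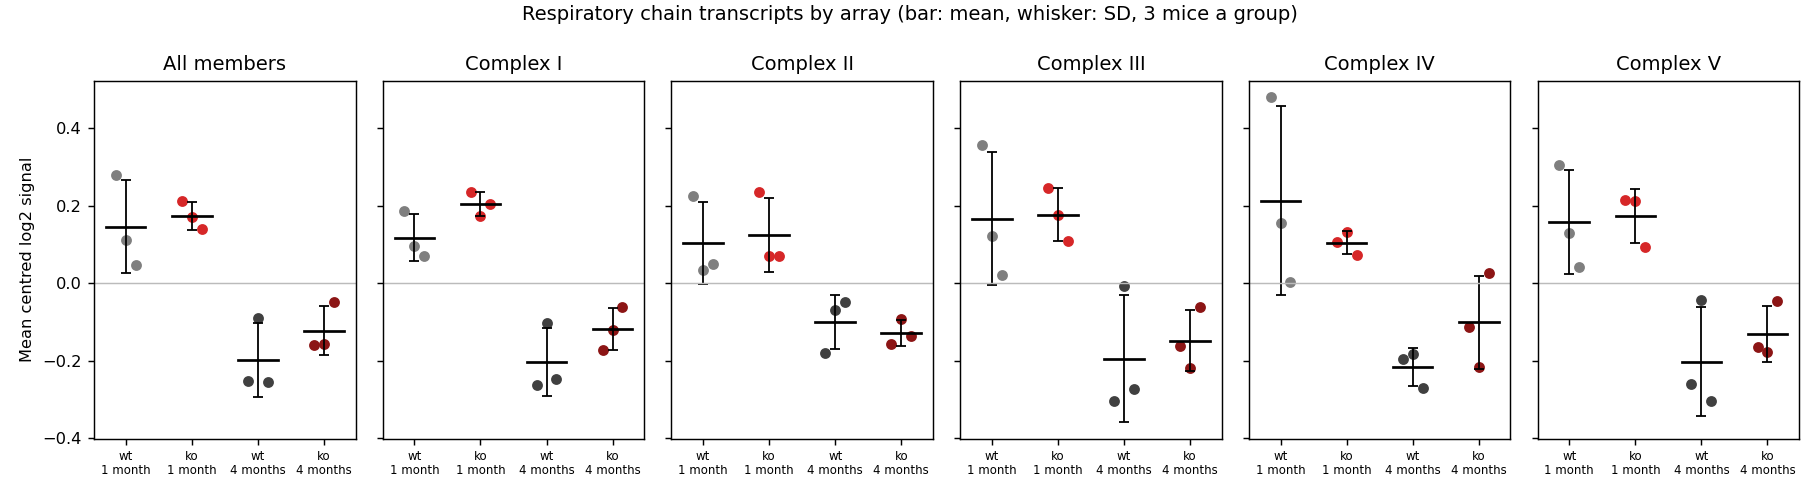
Mean centred log2 signal of all 73 tested members and of each complex (vertical axis, log2 units) on each of the 12 arrays, by group (horizontal axis), where points are arrays, bars group means and whiskers SD over 3 mice. For all members the 6 arrays at 1 month stand between 0.05 and 0.28 and the 6 at 4 months between -0.26 and -0.05.

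The mean of the centred log2 signals over all 73 members was 0.28, 0.11 and 0.05 on the 3 wt arrays at 1 month and -0.25, -0.09 and -0.26 at 4 months. On the ko arrays it was 0.21, 0.17 and 0.14 at 1 month and -0.16, -0.16 and -0.05 at 4 months. All 6 younger arrays therefore stood above all 6 older ones, while wt and ko overlapped at both ages. The same mean did not follow all genes, whose median on an array lay between -0.05 and 0.08 and was higher at 4 months. At 1 month the wt mean was 0.15 ± 0.12 (SD, n = 3) and the ko mean 0.17 ± 0.04, and at 4 months they were -0.20 ± 0.10 and -0.12 ± 0.06. The wt array of replicate 2 at 4 months, the one with pancreas transcripts, was the highest of its group. Without it, 29 members fell in wt, with a median of -0.41.

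Complex I carries electrons from NADH and is the largest of the complexes. In wt 8 of its 33 tested members fell with age and in ko 16, with medians of -0.29 and -0.38, and 7 of these passed in both. Ndufc1, a small accessory subunit of the membrane arm, had signals of 3731, 3425 and 3773 in wt and 4054, 4297 and 4605 in ko at 1 month. At 4 months the signals were 2343, 2495 and 2712 in wt and 2779, 2714 and 3072 in ko. Every older array lay below every younger one in both genotypes. On the log2 scale Ndufc1 changed by -0.53 (SE 0.12, limma adjusted p = 0.0063) in wt and -0.59 (SE 0.12, limma adjusted p = 0.00286) in ko.

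Ndufb9, another accessory subunit of the membrane arm, had the largest decline of the complex in wt. Its signals went from 9900, 8571 and 9125 at 1 month to 4841, 6074 and 5806 at 4 months in wt, and from 9640, 10500 and 11908 to 7612, 7736 and 7843 in ko. The younger and older arrays did not overlap in either genotype. The decline was 1.65-fold in wt (log2 -0.72, SE 0.13, limma adjusted p = 0.0011), while in ko its age difference was -0.46 (SE 0.13, limma adjusted p = 0.0187). A second probe set of Ndufb9 was also called lower in both, at -0.62 (limma adjusted p = 0.00426) in wt and -0.72 (limma adjusted p = 0.0016) in ko. The third had signals of 8.4 to 120, near the filter, and no direction is drawn from it. The other members called in both genotypes were Ndufa9, Ndufb8, Ndufc2, Ndufv2 and Ndufa4, and the array set block lost the ko calls of Ndufa9 (-0.47, limma adjusted p = 0.0553) and Ndufb8 (-0.45, limma adjusted p = 0.07). Ndufa4 is counted here by its symbol, although its protein is now placed in cytochrome c oxidase.

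Ndufa2, an accessory subunit of the arm that reaches into the matrix, had the largest decline of complex I in ko. Its ko signals were 5156, 4189 and 4662 at 1 month and 2526, 3045 and 2766 at 4 months. These 2 ko groups lay far apart, with a log2 difference of -0.74 (SE 0.16, limma adjusted p = 0.0036). The wt signals were 2997, 3026 and 4340 at 1 month and 2630, 2518 and 3146 at 4 months, where the groups overlapped and the difference was -0.30 (SE 0.16, limma adjusted p = 0.192). Ndufb1 fell by 0.64 (SE 0.22) in ko and Ndufb2 by 0.60 (SE 0.17), and in wt they stood at -0.45 and -0.48 without passing. The array set block lost both ko calls (limma adjusted p = 0.0645 for Ndufb1 and 0.0758 for Ndufb2) and brought Ndufb2 to a call in wt (limma adjusted p = 0.0421). Ndufb1, at a limma adjusted p of 0.0489, was lost under 10 of 20 alternatives. The ko calls of Ndufb7 and Ndufb10 were lost with the block as well (limma adjusted p = 0.071 and 0.0842).

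Some of the subunits that carry flavin or iron-sulphur centres fell as well. Ndufs1, the large iron-sulphur subunit, fell by 0.48 (SE 0.14, limma adjusted p = 0.0196) in ko and stood at -0.29 (SE 0.14) in wt. Ndufv1, which binds NADH, fell by 0.46 (SE 0.15, limma adjusted p = 0.0336) in ko and stood at -0.27 (SE 0.15) in wt, and its ko call was lost with the array set block (-0.39, limma adjusted p = 0.104). Ndufv2, its iron-sulphur partner, fell in both, by 0.49 (SE 0.12) in wt and 0.40 (SE 0.12) in ko. At the other end of complex I, Ndufa6 was at 0.04 (SE 0.12) in wt and -0.10 (SE 0.12) in ko. Ndufs7 was at 0.00 (SE 0.14) in ko, with signals of 3335, 2929 and 3031 at 1 month and 3110, 2764 and 3445 at 4 months. Its other tested probe set was called lower in ko, at -0.39, so the ko result depends on the probe set.

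Complex II, succinate dehydrogenase, also serves in the tricarboxylic acid cycle. None of its 4 subunits passed in wt and 1 did in ko, with medians of -0.19 and -0.22. Sdhd, a membrane anchor, had ko signals of 3844, 3278 and 3142 at 1 month and 2354, 2615 and 2436 at 4 months. The ko groups did not overlap, and the difference was -0.46 (SE 0.15, limma adjusted p = 0.0351), against -0.50 (SE 0.17, limma adjusted p = 0.0502) with the array set block. In wt the same anchor went from 4111, 2985 and 2876 to 2304, 2684 and 2498, also without overlap, at -0.39 (SE 0.15, limma adjusted p = 0.0714). The other tested probe set of Sdhd stood at 0.55 in wt and -1.04 in ko and was called in neither. Its direction in wt therefore depends on the probe set. Sdha, the flavoprotein, stood at -0.09 in wt and -0.10 in ko (SE 0.14 each), Sdhb, the iron-sulphur protein, at -0.29 and -0.20 (SE 0.16 each), and the other anchor Sdhc at -0.05 and -0.24 (SE 0.17 each).

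Complex III had 8 tested members, of which 1 fell in wt and 2 in ko, with medians of -0.35 and -0.29. Uqcrh, the hinge protein near cytochrome c1, fell by 0.65 (SE 0.20, limma adjusted p = 0.0299) in wt. Its wt signals at 1 month were 22717, 14017 and 10848, so the array of replicate 1 stood far above the others, and those at 4 months were 9846, 10739 and 8467. Without that array the call was lost, at -0.35 (limma adjusted p = 0.153), as it was without wt replicate 1 or 3 at 4 months. In ko the small subunits Uqcr10 and Uqcr11 each fell by 0.57 (SE 0.16 and 0.17). The Uqcr11 call was lost with the array set block (-0.44, SE 0.18, limma adjusted p = 0.0976) and with quantile normalization. It was also lost without ko replicate 2 or 3 at 1 month or 1 at 4 months, and the Uqcr10 call without replicate 1 or 2 at 1 month or 1 or 3 at 4 months. Uqcrb, another small subunit, was not called, but stood at -0.41 in wt and -0.52 in ko with the block (limma adjusted p = 0.00339 and 0.00294), where the fit without it gave -0.41 and -0.13. Uqcrfs1, the Rieske iron-sulphur protein, was at -0.23 in wt and -0.21 in ko (SE 0.16 each, and -0.44 in ko with the block, limma adjusted p = 0.037), and the core protein Uqcrc1 at -0.37 and -0.44 (SE 0.15 each), none of them called without the block.

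Complex IV, cytochrome c oxidase, held both the largest decline and the members with the least decline. Of 11 tested, 6 fell in wt and 3 in ko, with medians of -0.42 and -0.22. Cox6b2, the testis form of subunit 6b, had wt signals of 1939, 1642 and 1784 at 1 month and 525, 760 and 414 at 4 months. In ko they were 2680, 2739 and 3359 at 1 month and 1184, 1391 and 1383 at 4 months. The 4 groups did not overlap on any array, in the order ko at 1 month, wt at 1 month, ko at 4 months and wt at 4 months. With age the gene was 3.12-fold lower in wt (log2 -1.64, SE 0.18, limma adjusted p = 1.45e-05) and 2.18-fold lower in ko (log2 -1.13, SE 0.18, limma adjusted p = 0.000549). Both calls held under every alternative tried.

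Cox6b1, the form of the same subunit found in most tissues, moved less. Its signals were 14708, 13688 and 12906 in wt and 14605, 14626 and 12756 in ko at 1 month, and 10852, 10577 and 9911 in wt and 9877, 10683 and 11214 in ko at 4 months. Younger and older arrays stood apart and the genotypes overlapped. The decline with age was 0.40 log2 units in each genotype (SE 0.12 each, limma adjusted p = 0.0294 in wt and 0.0261 in ko). The wt call was lost without wt replicate 1 or 2 at 1 month or 2 or 3 at 4 months, and the ko call without ko replicate 1 or 2 at either age.

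Cox5b, a nuclear-encoded subunit on the matrix side of the oxidase, fell 1.90-fold in wt (log2 -0.92, SE 0.20, limma adjusted p = 0.00427). Its wt signals were 22996, 18284 and 11514 at 1 month and 10240, 8970 and 7687 at 4 months, and the ko signals 13061, 13430 and 12789, then 12391, 9336 and 11939. The low-set array was the lowest in each of the 3 groups that held both sets. In ko the difference was -0.23 (SE 0.20, limma adjusted p = 0.449), and blocking on the array set made it -0.57 (SE 0.14, limma adjusted p = 0.0099). Cox5a, which binds beside it, was at -0.07 in wt and 0.04 in ko (SE 0.17 each) on the probe set used. Of its 3 tested probe sets 2 were called lower in ko, the lowest at -0.75, so its ko result depends on the probe set. In wt all 3 were below 0 and none was called.

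Among the forms found in most tissues, Cox7a2 fell in both genotypes, by 0.53 (SE 0.13) in wt and 0.47 (SE 0.13) in ko. Cox6a1 fell by 0.57 (SE 0.16, limma adjusted p = 0.0217) in wt and stood at -0.22 (SE 0.16) in ko, where the array set block gave -0.48 (SE 0.098, limma adjusted p = 0.00367). Cox8a stood at -0.42 and -0.33 (SE 0.16 each) without a call, and the block brought it to one in wt (limma adjusted p = 0.0424). The heart and muscle form Cox6a2 lay near the filter, with signals of 303, 106 and 157 in wt and 101, 103 and 99.4 in ko at 1 month, and 196, 224 and 196 in wt and 186, 93.6 and 152 in ko at 4 months. It was the highest of the age differences in both genotypes, at 0.20 and 0.37 (SE 0.30 each), and was not called. Of 12 skeletal muscle markers, 10 did not reach the filter, and none was at 0.

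Complex V had 17 tested members, of which 7 fell in wt and 6 in ko, with medians of -0.39 and -0.33. Atp5pb, subunit b of the peripheral stalk, had signals of 11411, 11897 and 11822 in wt and 12427, 14103 and 11792 in ko at 1 month, and 8157, 7885 and 8835 in wt and 7874, 8872 and 8923 in ko at 4 months. No older array reached a younger one. Its decline was 0.50 (SE 0.12, limma adjusted p = 0.00879) in wt and 0.57 (SE 0.12, limma adjusted p = 0.00333) in ko. The other members called in both were Atp5o and Atp5j, also of the peripheral stalk, and Atp5mpl, a small membrane subunit, and the ko call of Atp5j was lost with the array set block (-0.40, limma adjusted p = 0.0535).

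Atp5h, subunit d of the same stalk, had wt signals of 17532, 14912 and 11674 at 1 month and 9456, 9683 and 8245 at 4 months, without overlap. It fell by 0.67 (SE 0.15, limma adjusted p = 0.00402) in wt and stood at -0.35 (SE 0.15, limma adjusted p = 0.0974) in ko, and at -0.52 (limma adjusted p = 0.00641) there with the array set block. Atp5j2, subunit f, fell by 0.53 (SE 0.15) in wt on the probe set used. Of its 3 probe sets 2 were called lower and 1 higher in wt, so its direction depends on the probe set. The probe set used stood at -0.29 in ko, and at -0.42 with the block (limma adjusted p = 0.0443). Atp5g1, which encodes the ring subunit c, fell by 0.54 (SE 0.17, limma adjusted p = 0.0336) in ko, a call lost with the array set block (-0.54, SE 0.20, limma adjusted p = 0.0717) and under 9 of 20 alternatives in all. Of the other ring genes, Atp5g2 stood at -0.13 in wt and 0.14 in ko (SE 0.17), and Atp5g3 at -0.39 and -0.23 (SE 0.14), which the block moved to calls in wt and ko (limma adjusted p = 0.00761 and 0.0186). The other tested probe set of Atp5g2 was called higher in wt, at 0.84, so its direction there also depends on the probe set. Neither catalytic subunit was called in either genotype without the block. Atp5a1, the alpha subunit, stood at -0.25 and -0.20 (SE 0.14 each), and Atp5b, the beta subunit, at -0.37 and -0.31 (SE 0.14 each). With the array set block Atp5a1 was called in ko, at -0.39 (limma adjusted p = 0.0169), and Atp5b in wt, at -0.37 (limma adjusted p = 0.0284).

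**Figure D2:**
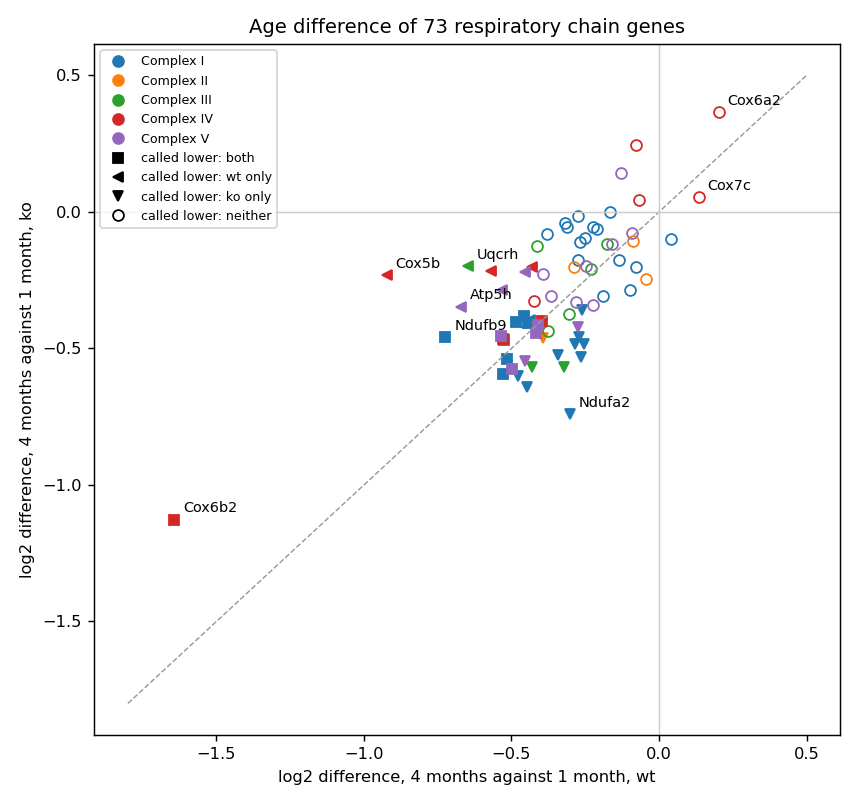
Log2 difference of 4 months against 1 month in wt (horizontal axis) and in ko (vertical axis) for the 73 tested members, coloured by complex and shaped by where the gene was called lower, with the diagonal dashed. In both genotypes 66 genes lie below 0, and Cox6b2 stands apart at -1.64 and -1.13.

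Across the 73 genes, the age differences in wt and ko had a Pearson r of 0.66, and 0.57 without Cox6b2. The 2 sets of differences come from separate arrays but share the probe sets, so genes are not independent points, and 66 of them were below 0 in both. Where a gene had several tested probe sets (44 genes), all of them were below 0 in 32 genes in wt and 30 in ko. Counting every tested probe set of a member, 38 were called lower and 2 higher of 145 in wt, and 52 lower and none higher in ko.

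The counts with age depended on single arrays while the medians did not change sign. Leaving out an array gave 7 to 29 called in wt, with 7 without wt replicate 1 at 1 month, 13 without replicate 1 at 4 months and 14 without replicate 3 at 4 months, and medians between -0.41 and -0.29. In ko it gave 5 to 19, with 5 without replicate 1 at 4 months, 13 without replicate 3 at 4 months, and 9, 8 and 17 without replicates 1, 2 and 3 at 1 month, and medians between -0.34 and -0.29. Blocking on the array set, 30 members fell in wt, including all 22, and 28 in ko, of which 17 were among the 28. The corresponding shares of all probe sets were 10.8% and 7.34%. The ko values with the block use a set difference taken from the other groups, as described for the arrays. Of the 22 wt calls 15 were lost without wt replicate 1 at 1 month, and of the 28 ko calls 23 were lost without ko replicate 1 at 4 months. The calls that held whichever single array was left out numbered 7 in wt (Cox6b2, Ndufc1, Ndufb9, Ndufv2, Cox5b, Atp5h and Atp5pb) and 4 in ko (Cox6b2, Ndufc1, Ndufa2 and Atp5pb).

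**Figure D3:**
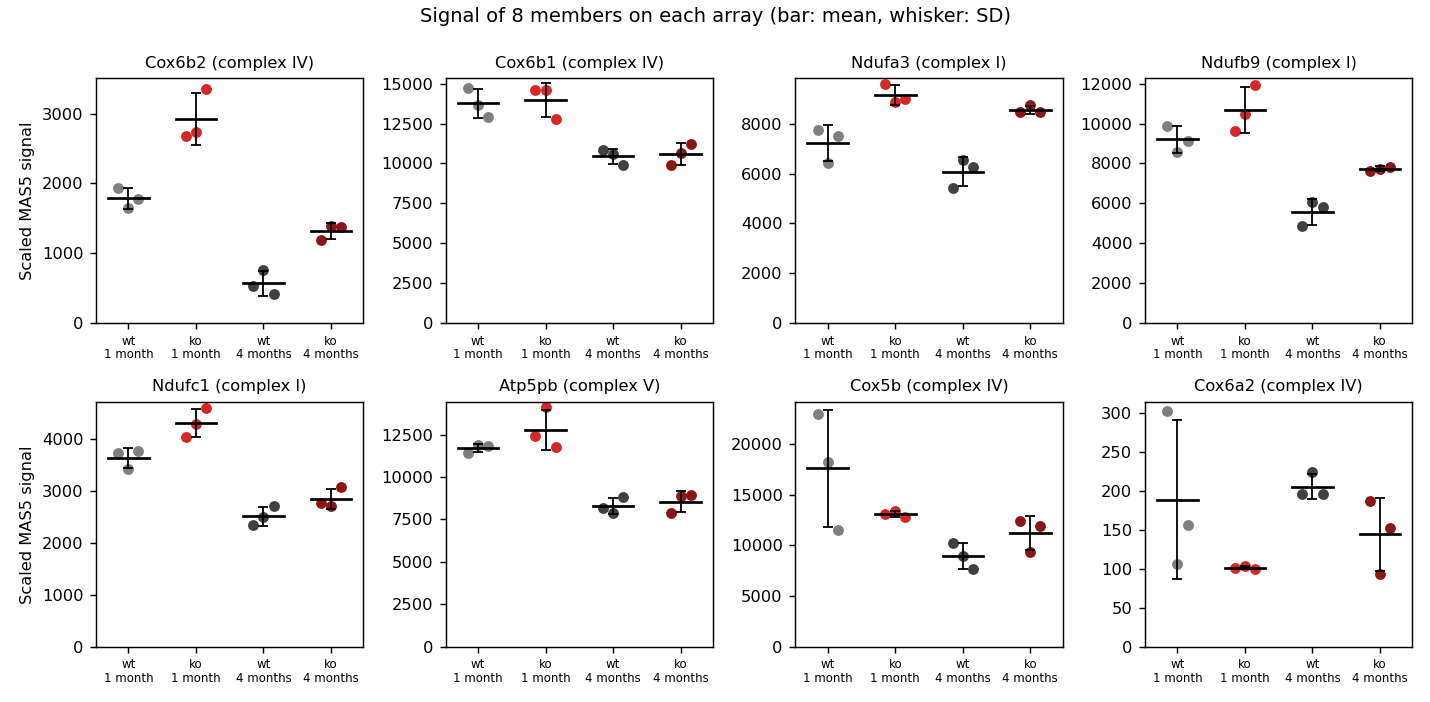
Scaled signal (vertical axis, from 0) of 8 members on every array, by group (horizontal axis), where points are single mice, bars group means and whiskers SD over 3 mice. Cox6b2 separates all 4 groups, Cox6b1, Ndufc1 and Atp5pb separate the ages, and Cox5b and Cox6a2 spread widely in wt at 1 month.

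Cell type markers moved with age in the same spleens. All 11 tested erythroid markers fell in wt (median -1.66) and 7 fell in ko (median -0.67). Their summed signal was 108377 to 139929 in wt and 112855 to 127685 in ko at 1 month, and 35971 to 63283 in wt and 81063 to 91506 in ko at 4 months. All 10 tested markers of proliferating cells fell in wt (median -1.63) and 9 in ko (median -0.91), with sums of 77988 to 107582 and 85740 to 90899 at 1 month and 25016 to 40303 and 46179 to 52752 at 4 months. All 11 neutrophil markers fell in both, from sums of 44585 to 54851 in wt and 129383 to 160846 in ko to 9823 to 14794 and 52544 to 70044. Of 8 megakaryocyte markers 6 fell in wt (median -0.70) and none in ko (median 0.26), with sums of 29697 to 37583 in wt and 32594 to 34188 in ko at 1 month and 14648 to 24399 and 34457 to 47267 at 4 months. In the other direction, 6 of 7 B cell markers rose in each genotype, and 7 of 9 macrophage markers rose in wt and all 9 in ko. The wt array with pancreas transcripts gave the highest wt sum at 4 months in each list that fell in wt. Without it those sums reached 46495 (erythroid), 28120 (proliferating cells), 10144 (neutrophil) and 21817 (megakaryocyte). No marker of these lists was at 0 in a whole group. Their part in the decline of the respiratory chain transcripts was not tested.

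At 1 month no respiratory chain gene was called between ko and wt spleens. None of 73 passed limma adjusted p under 0.05, where 0.444% of all probe sets did, and 7 had an unadjusted p under 0.05, where 15.8% of all probe sets did. The median was 0.02 against -0.02 for all genes, with 43 differences above 0 and 30 below. Cox6b2 had the largest difference, at 0.70 (SE 0.18, limma adjusted p = 0.101), and all 3 ko arrays were above all 3 wt arrays. Ndufb10, a membrane arm subunit, had wt signals of 1733, 2045 and 2493 and ko signals of 2507, 2914 and 3661, also without overlap, at 0.53 (SE 0.17, limma adjusted p = 0.16). Uqcrc1 stood at 0.37 (SE 0.15) and Ndufa2 at 0.45 (SE 0.16), and Cox6a2 was the lowest at -0.63 (SE 0.30).

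The low-set array of wt at 1 month, replicate 3, bore on this comparison. Without it, 3 members were called: Ndufa2 at 0.62 (SE 0.15, limma adjusted p = 0.0282), Ndufb10 at 0.66 (SE 0.17, limma adjusted p = 0.0395) and Cox5b at -0.65 (SE 0.16, limma adjusted p = 0.0349). The remaining comparison then set 2 high-set wt arrays against 3 low-set ko arrays, so set and genotype cannot be told apart in it. On all arrays, the 5 tested probe sets of Cox5b ran from -0.37 to 0.60 at 1 month, so its direction depends on the probe set. Centring each array on its median moved the median of all genes from -0.02 to 0.14 and left 10 members below 0.

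At 4 months 2 members rose in ko, Cox6b2 and Ndufa3, and none fell, by limma adjusted p under 0.05. Higher calls made up 1.78% of all probe sets, and 2 of 73 is near that share. Cox6b2 was 2.32-fold higher in ko (log2 1.21, SE 0.18, limma adjusted p = 0.00212), from 566 ± 177 (SD, n = 3) in wt to 1319 ± 117 in ko. This call was lost within the high array set alone (2 mice against 2, limma adjusted p = 0.108) and held under the other 20 alternatives. Ndufa3, an accessory subunit of the complex I membrane arm, had signals of 5414, 6548 and 6272 in wt and 8467, 8747 and 8484 in ko. The groups did not overlap, and the difference was 0.50 (SE 0.13, limma adjusted p = 0.0474). The probe set read has the suffix _x_at, so its probes can match other transcripts. A second probe set of Ndufa3 stood at 0.37 (SE 0.15, limma adjusted p = 0.21) and was not called. The third, near the filter, stood at -0.23, so the call depends on the probe set. The Ndufa3 call was lost under 12 of 21 alternatives, among them leaving out any ko array or wt replicate 1 or 3 at 4 months.

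Ndufb9 came next in ko at 4 months, with 0.48 (SE 0.13, limma adjusted p = 0.0729), and passed with quantile normalization (limma adjusted p = 0.0453) and when the array set was blocked (0.0333). Without these changes its 3 tested probe sets ran from 0.07 to 0.48, and none was called. The median of all members was 0.05 against 0.02 for all genes. By complex the medians were 0.06 for complex I, -0.04 for II, 0.05 for III, 0.10 for IV and 0.05 for V. Complex V members ranged from -0.06 (SE 0.23) for Atp5md to 0.23 (SE 0.13) for Atp5j. Cox6b1, the widespread form, stood at 0.02 (SE 0.12) at both ages, where Cox6b2 stood at 0.70 and 1.21. Without the wt array that carried pancreas transcripts the same number, 2, was called, and the median was 0.11.

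**Figure D4:**
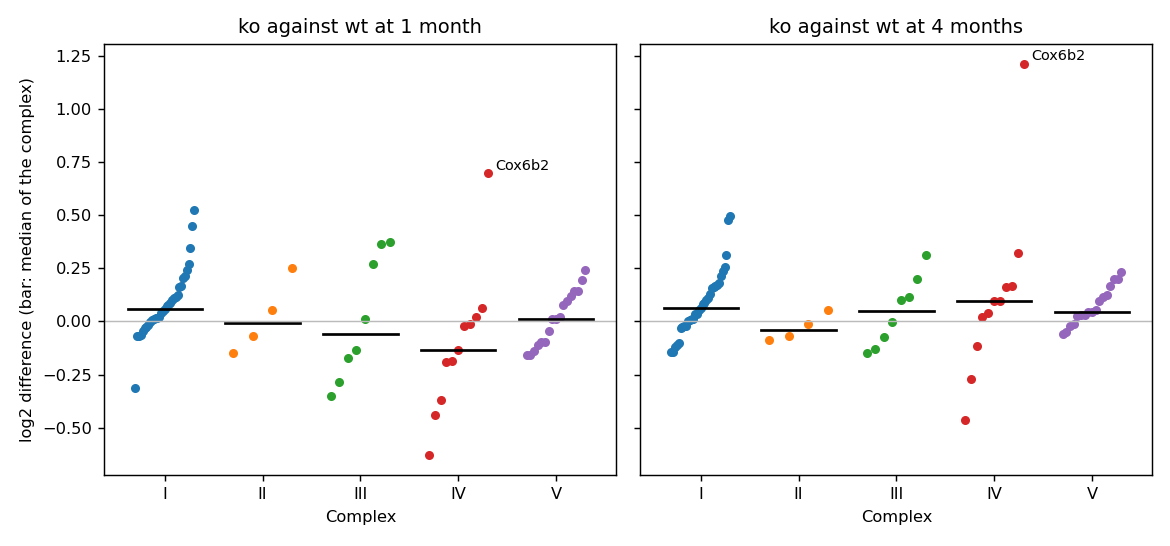
Log2 difference of ko against wt (vertical axis) at 1 month (left) and 4 months (right) for the 73 tested members, grouped by complex (horizontal axis), where each point is a gene and bars are medians of the complex. The medians lie between -0.13 and 0.06 at 1 month and between -0.04 and 0.10 at 4 months, and Cox6b2 is the highest at both ages.

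Erythroid, proliferation, megakaryocyte and neutrophil markers also differed by genotype at 4 months. In ko 9 of 11 erythroid markers were higher (median 1.08), 8 of 10 markers of proliferating cells (median 0.80), all 8 megakaryocyte markers (median 1.10) and all 11 neutrophil markers (median 2.82). At 1 month none of the erythroid, proliferation or megakaryocyte markers was called, with medians of 0.10, 0.01 and 0.10, and all 11 neutrophil markers were higher in ko (median 2.05). Their part in the Cox6b2 and Ndufa3 differences was not tested.

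No respiratory chain gene was called for a change of the genotype effect with age. None of 73 passed limma adjusted p under 0.05, against 0.0481% of all probe sets, and 1 had an unadjusted p under 0.05, against 8.65% of all probe sets. That gene was Cox5b, at 0.69 (SE 0.29, limma adjusted p = 0.519), and it stood at 0.35 (SE 0.18) once the array set was blocked. Over its 5 tested probe sets the difference ran from -0.61 to 0.69, with 2 below 0, so its direction depends on the probe set. Cox6b2 had a difference of 0.52 (SE 0.26, limma adjusted p = 0.603), which is also the difference between its 2 age effects. The median was 0.04, the same as that of all genes. A gene called with age in one genotype and not in the other was therefore not shown to differ between them.

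Most members varied together over the 12 arrays. The median Pearson r over the 2628 pairs was 0.562 and 88.9% of pairs were above 0, a description over arrays that share the age difference and the scaling. Set against the mean of the other members, 35 genes had an r above 0.8, led by Atp5o at 0.971, Ndufv2 at 0.964 and Cox6b1 at 0.942. The 7 below 0.3 were Cox6a2 at -0.24, Cox7c at -0.19, Cox8c at -0.15, Ndufa6 at -0.05, Sdhc at 0.11, Atp5g2 at 0.24 and Cox5a at 0.26. Each was read from a single probe set, and the probe sets of Cox5a called lower in ko with age were not used here. Outside the members, the 5 genes whose signal was most like the members' mean over the 12 arrays were Polr2j (r = 0.988), Lsm3 (0.981), Psmd5 (0.979), Stmn1 (0.976) and Camsap2 (0.974). Polr2j encodes an RNA polymerase II subunit, Lsm3 an RNA-binding protein of splicing, Psmd5 a proteasome assembly chaperone and Stmn1 and Camsap2 regulators of microtubules.

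The promoter letters were also counted by decline with age. Of the members lower with age in both genotypes, 12 had a window, and 1 held the ETS letters (Cox6b1), 1 the NRF1 letters (Atp5o) and 1 the YY1 letters (Ndufa9). Of the 30 with a window that passed in neither, 7, 8 and 2 held them. These counts are a description of the letters in these windows.

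Other mitochondrial genes were counted in the same comparisons, where 11.5% of all genes were called lower with age in wt and 10.9% in ko. Among all probe sets, 11.8% were called higher in wt and 13.6% in ko. Of 15 tested respiratory chain genes that the symbol rule leaves out, 3 fell and 1 rose in wt and 4 fell and 1 rose in ko, with medians of -0.24 and -0.20. Cycs, cytochrome c, fell by 0.56 (SE 0.12, limma adjusted p = 0.00488) in wt and 0.69 (SE 0.12, limma adjusted p = 0.00107) in ko, and Cyc1, cytochrome c1 of complex III, by 0.54 and 0.52 (SE 0.12 each). Gpd2, the mitochondrial glycerol phosphate dehydrogenase that also feeds ubiquinone, rose by 0.55 (SE 0.13) in wt and 0.47 (SE 0.13) in ko. Among 28 assembly factors, 2 fell in wt, and 4 fell and 3 rose in ko, with medians of -0.08 and -0.04, and the wt count is below the share of all genes. The copper-handling factors Cox17 and Cox11 fell in both genotypes, Cox17 by 0.63 and 0.94 (SE 0.12 each) and Cox11 by 0.97 and 0.90 (SE 0.13 each).

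Proteins of the large mitochondrial ribosomal subunit, which help to make the mitochondrially encoded subunits, had 7 of 45 lower in wt and 11 in ko and none higher, with medians of -0.20 and -0.28. Mrpl51 fell by 0.83 and 0.81 (SE 0.12 each), and Mrpl20 by 0.62 and 0.74 (SE 0.15 each). Of 16 carriers and porins 4 fell and 1 rose in wt, and 4 fell and 2 rose in ko. Slc25a38, which brings glycine into mitochondria for haem synthesis, fell by 1.47 (SE 0.18) in wt and 1.02 (SE 0.18) in ko, and Slc25a37, which brings in iron, fell by 0.91 (SE 0.14) in wt. Of 18 genes of the tricarboxylic acid cycle 2 fell in wt and 4 in ko, with none higher, and the wt count is near the share of all genes. Idh3a, a subunit of isocitrate dehydrogenase, fell by 0.58 and 0.82 (SE 0.14 each).

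**Figure D5:**
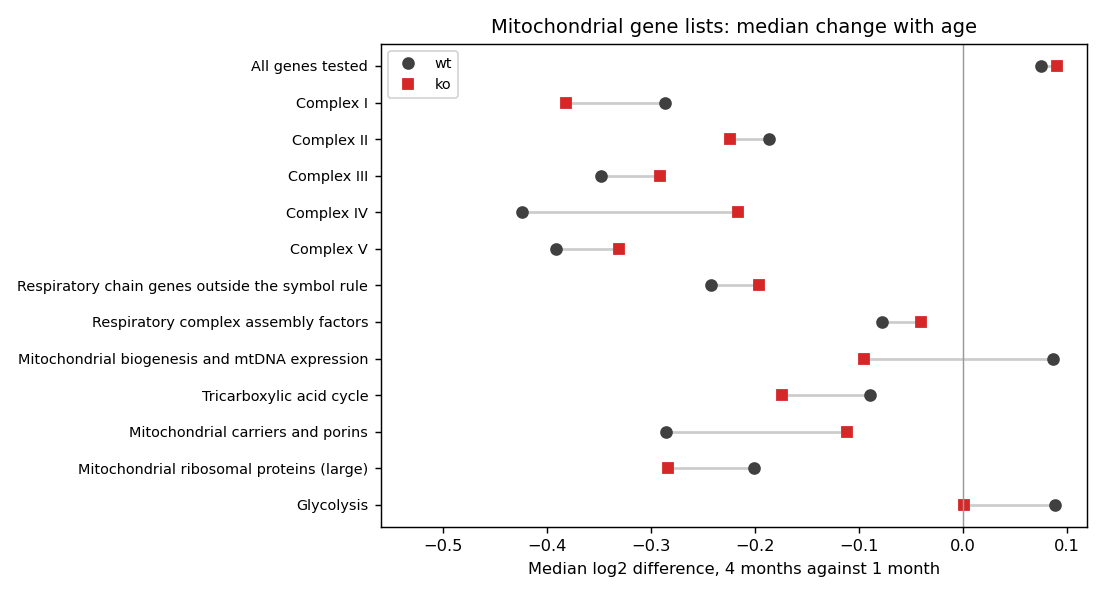
Median log2 difference of 4 months against 1 month (horizontal axis) in wt (circles) and ko (squares) for all genes tested, for the 5 complexes and for 7 other lists (vertical axis). All 5 complexes lie below 0 in both genotypes, between -0.42 and -0.19, while all genes lie at 0.08 and 0.09.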

How the data were processed

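The authors deposited 1 linear signal intensity for each probe set, and the submitters' processing notes name MAS5 without a version. Arrays carried 45101 probe sets, of which 64 controls were left out, and the platform annotation gave 1 symbol to 34945, several to 932 and none to 9160. Signals were scaled to a 2% trimmed mean of 500 per array, which they already had, and log2 was taken after adding 32. The test took the 27041 probe sets that reached 100 on at least 3 of 12 arrays. Means of 4 groups were fitted over all 12 arrays with limma 3.58.1 in R 4.3.3 (lmFit, eBayes with an intensity trend, 8 residual degrees of freedom), with 2-sided tests and Benjamini-Hochberg adjustment over all probe sets tested. The fit was tested on simulated data. Errors are limma's standard errors (SE), or standard deviations (SD) over 3 mice, and the number of arrays limits the precision. A fold is on the scale of log2(signal + 32), which understates changes of dim probe sets. No 2 arrays were identical, and Pearson's r within a group was 0.944 to 0.983.

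Genes named are, per comparison, every called member or the 10 with the largest difference, the extremes of each complex, members fixed by role, and up to 4 called members of each other list. Ndufb8, Ndufc2, Ndufv2, Atp5o and other called members were named after their values were seen. The members and all lists were chosen with earlier results of these data known. Of the tested members, 16 were read from probe sets with the suffix _x_at (5) or _s_at (11), whose probes can match other transcripts. Alternatives were other scalings, an offset of 1 or 64, a filter at 200 or none, no trend, array weights, an adjusted p under 0.10, other probe set rules, fits on fewer arrays, blocks for replicate number and array set, and leaving out each array.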

Additional observations from a re-analysis of the deposited data

How the results depend on the processing

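Over the named genes followed and all alternatives, that small fit included, 441 calls held, 132 were lost, none reversed, and 32 uncalled differences became calls. Against 22 called in wt and 28 in ko, quantile normalization gave 12 and 13, no filter 14 and 18, and no intensity trend 15 and 16. In other fits wt and ko moved differently: array weights gave 12 in wt and 37 in ko, only the arrays compared 5 and 36, and median centring 22 and 38. Counting every probe set gave 40 (2 of them higher) and 52. Within the low array set 1 was called in wt and 6 in ko, where each group except ko at 1 month was 1 array, so the spread came from the ko arrays at 1 month alone and the lone arrays were assumed to vary like them. At 4 months 1 member was called in ko against wt, in place of 2, with median centring, no filter, no intensity trend, only the arrays compared, the replicate block, the low array set and without _x_at and _s_at probe sets (an alternative chosen after seeing the data), and 0 within the high array set. Median centring gave a median of 0.18 at 1 month, -0.090 for the change of the genotype difference with age, where all genes stood at -0.091, and -0.46 for age in ko, where all genes moved from 0.09 to -0.06. The median at 1 month was 0.13 within the low array set, and the median for age in ko was -0.40 with the array set block. Over all probe sets, the share of calls that were higher moved with the scaling from 45.8% to 78.8% (median centring) and 57.7% (quantile) at 1 month, from 59.6% to 36.6% for age in ko and from 61.5% to 44.4% for the difference between ages (median centring).

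Leaving out each array gave 0 to 3 calls at 1 month (median -0.04 to 0.09), 1 to 2 at 4 months (0.03 to 0.11), 0 for the difference between ages (-0.03 to 0.11), 7 to 29 for age in wt (-0.41 to -0.29) and 5 to 19 for age in ko (-0.34 to -0.29). The 4-month count was 1 without any ko array or wt replicate 1 or 3 of that age. Correlations of deviations between same-numbered arrays ran from -0.20 to 0.21. No values for different-numbered arrays stand beside them, so they do not show whether replicate numbers pair the arrays. The replicate block gave 20 calls for age in wt and 26 in ko. The cause of these changes was not tested, beyond the fewer arrays or probe sets some alternatives use. With 3 mice a group, small differences between genotypes are beyond what these arrays can show.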

Other observations

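Of 20 tested genes of mitochondrial biogenesis and mitochondrial DNA expression, 2 rose with age in wt and none fell, and in ko 2 rose and 2 fell, with medians of 0.09 and -0.10. In wt, Polg, the mitochondrial DNA polymerase, rose by 0.57 (SE 0.17, limma adjusted p = 0.0234). In ko, Esrra, a nuclear receptor known as a regulator of respiratory genes, rose by 0.57 (SE 0.17, limma adjusted p = 0.0252), while Ssbp1, which binds single-stranded mitochondrial DNA, fell by 0.46 (SE 0.14, limma adjusted p = 0.029). Yy1, the factor whose motif was searched, fell by 0.39 (SE 0.13, limma adjusted p = 0.0405) in ko. The 2 of 20 lower in ko are near the 10.9% of all genes called lower there. Among all probe sets, 11.8% were called higher with age in wt and 13.6% in ko, and 2 of 20 is not above either share.

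Of 19 tested glycolysis genes, 5 rose and 3 fell with age in wt, and 1 rose and 4 fell in ko, with medians of 0.09 and 0.00. The shares called higher were 11.8% of all probe sets in wt and 13.6% in ko. Those called lower were 11.5% and 10.9% of all genes. Pklr, the pyruvate kinase of red cells and liver, fell by 1.25 (SE 0.27) in wt and 0.96 (SE 0.27) in ko, and Hk1 by 0.99 (SE 0.18) and 0.57 (SE 0.18). Pfkp, the platelet form of phosphofructokinase, rose by 0.96 (SE 0.18) in wt, while the muscle form Pfkm fell by 0.98 and 1.01 (SE 0.21 each). In ko against wt, Hk3 was higher at 1 month, by 1.08 (SE 0.19, limma adjusted p = 0.0165), and Hk1 at 4 months, by 0.82 (SE 0.18, limma adjusted p = 0.0265). At 4 months ko also exceeded wt in Slc25a10, the dicarboxylate carrier, by 0.98 (SE 0.19), in Pcx, pyruvate carboxylase, by 0.93 (SE 0.24) and in Slc25a38 by 0.75 (SE 0.18).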
